A study of Mus musculus with 8 samples.

Results

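The CpGs described here are autosomal CpGs of cells labelled type A spermatogonia. They were read on both DNA strands by RRBS, reduced representation bisulfite sequencing. In RRBS, genomic DNA is cut by the enzyme MspI and the methylation of each cytosine is read after bisulfite treatment. A CpG entered when the deposited table had a row for its plus-strand cytosine and a row for the minus-strand cytosine at the next base. There were 571672 such paired CpGs among 1516180 autosomal CpGs with at least 1 strand in the table. They took 1143344 of its 2087852 autosomal rows, and 944508 CpGs had 1 strand only. The labelled cells were isolated with an antibody to CD49f at postnatal day 6 from F1 males of C3H/HeN mice. For each sample, 8 testes of 4 mice were pooled. Promoter levels that go against the label are given below. The 4 control samples came from dams given tap water. The 4 arsenic samples came from dams given 85 ppm sodium arsenite in the drinking water from gestational day 8 to 18. The pools are separate samples in the labels, so that the permutation and sign-flip p-values below measure the spread between pools of mice. The q-values given for single CpGs come from reads summed over the pools of a group and leave this spread out. A change in the mix of cells cannot be told apart from a change of methylation within cells.

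A CpG reads the same on both strands, 5′ to 3′, so each CpG holds a cytosine on either side of the double helix. After DNA replication the new strand is unmethylated, and UHRF1 and the maintenance methyltransferase DNMT1 copy the old strand's pattern onto it. The methylation level of a population of cells is therefore usually alike on both strands. An inner CpG lies between the MspI cuts that bound its fragment. Reads that begin at these cuts read its plus strand from the left end and its minus strand from the right end. The left cut was at least 301 bases away at 30442 inner CpGs, and the right cut at 30186. How such CpGs were read on the strand concerned was not established. At a CpG in the cut site itself (CCGG), reads that begin at the cut come from the right-hand fragment for the plus strand and from the left-hand fragment for the minus strand. Reads that begin at the far end of a fragment can also reach this CpG, and these read the opposite strand. The strands of one CpG thus come from different molecules, and a difference between them is a difference between 2 populations of reads and not a measure of hemimethylated DNA.

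The stretches below carry the results, as plus-strand sequence of GRCm38 (mm10) from RefSeq with the CpG, or the MspI site that holds it, in capitals. The first 4 are MspI-site CpGs with nearly opposite levels on their strands, and those of Cdh3 and Pmp22 adjoin a fragment of 148 or 149 bases.
Cdh3 intron, chr8:106554775-106554804: tgtgagttcaacaCCGGcctggcccacaga
Pmp22, 253589 bases from its start site, chr11:63386378-63386407: ttttcttacttagCCGGtctcagtacatgc
Sdk2 intron, chr11:113790649-113790678: ctgagactgaaccCCGGggttcccacatgc
Atoh1, 77355 bases from its start site, chr6:64806466-64806495: cgccatcctggttCCGGgactccgtggaac
The next 3 are inner CpGs in soft-masked (repeat) sequence. The first and second lie in one fragment and have opposite levels, and the third is the exact reverse complement of the second over all 30 bases.
Igfbp3 first, 656085 bases from its start site, chr11:7869994-7870023: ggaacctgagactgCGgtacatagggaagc
Igfbp3 second, 656048 bases from its start site, chr11:7869957-7869986: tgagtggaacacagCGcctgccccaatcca
Lrrc4c, 1699593 bases from its start site, chr2:99167236-99167265: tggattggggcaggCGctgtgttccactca
The last 4 are the CpGs at which both strands were called in one direction between groups and the groups did not overlap on either strand.
Mcf2l intron, chr8:12992803-12992832: tgagtctgagtattCGtcttcacccaaggc
Maf, 17979 bases from its start site, chr8:115688901-115688930: atctgtaaatctcgCGgctgggttggtttt
Plcg1 intron, chr2:160732157-160732186: tggaggggggcatCCGGgtcttggatcacc
Ank3 exon, chr10:69822363-69822392: gaatgacacaaacgCGgacgtggagtcaaa

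Coverage summed over the paired CpGs was 26566536 to 37524569 per sample on the plus strand and 30218191 to 42098290 on the minus strand. A read that covers several CpGs counts at each of them in these sums. The median coverage of a strand was 33 to 47. The depth of single CpGs is given with some of them. The labelled cell type was checked at promoters whose methylation is known to differ between male germ cells and somatic cells. Maternally methylated imprinted promoters are unmethylated in male germ cells, and 7 of 14 listed genes had at least 3 paired CpGs there. Their mean level was 39.9 to 52.8% over the 8 samples, with Grb10 near 0 (0.677% plus, 0.762% minus). Promoters of germ-line genes, methylated in somatic cells and unmethylated where the genes are active, had levels of 80.9 to 86.4% over 6 of 12 genes, among them Ddx4 (82.1% plus, 78.3% minus) and Sycp1 (83.8% plus, 85.6% minus). These levels go against the labelled cell type on both strands, and no difference between groups was detected in either list (imprinted 46.5% ± 4.59 in control and 46.0% ± 5.28 in arsenic, exact permutation p = 0.914; germ-line 82.7% ± 2.61 and 82.2% ± 1.27, exact permutation p = 0.8; SD, n = 4). Their part in the group differences below was not tested.

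The strands of a CpG had nearly equal levels on average and across most of the genome. Pearson's r between plus-strand and minus-strand levels was 0.941 to 0.953 across the 571672 CpGs within a sample, and 0.977 with the reads of the 8 samples pooled (CpGs share libraries and fragments, and are not independent). The strands lay within 10 points of each other at 68.9 to 74.9% of CpGs in a sample. The mean of plus minus minus was -0.00626 ± 0.0223 points (SD, n = 8), above 0 in 3 of 8 samples, with no detectable difference from 0 (exact sign-flip permutation p = 0.477, also adjusted over 3 strand comparisons). It was 0.0789 points with CpGs weighted by coverage (exact sign-flip permutation p = 0.148). The SD of the strand difference at single CpGs was 12.1 to 13.7 points in a sample, of which counting error alone gives 6.63 to 7.92.

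Large differences were concentrated in a small class of sites. With the 8 samples pooled, 5487 CpGs (0.96%) differed by 30 points or more between strands, 2755 with the plus strand and 2732 with the minus strand higher. Of these, 5369 had the same sign in 8 of 8 samples, 111 in 7 and 7 in 6. Outside the threshold the nearest CpG differed by 29.9982 points and inside it by 30.0056, with 333 and 289 CpGs within 2 points on either side. At 50 points or more there were 3813 CpGs, at 70 or more 2984 and at 90 or more 427.

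MspI-site CpGs made up 43305 of the paired CpGs (7.58%) and 3899 of the discordant ones (71.1%). Of MspI-site CpGs 9.0% were discordant, against 0.301% of the 528367 inner CpGs. The spread of the strand difference beyond counting error was 24.5 ± 0.207 points at MspI sites and 8.66 ± 0.445 at inner CpGs (SD, n = 8). It was higher at MspI sites in 8 of 8 samples, by 15.4 to 16.6 points (exact sign-flip permutation p = 0.00781, the smallest that 8 samples allow, adjusted p = 0.0117). CpGs in soft-masked sequence, where the reference genome marks repeats, had a spread of 15.3 ± 0.240 points against 9.61 ± 0.400 elsewhere, with a difference of 5.70 in the mean and the same direction in 8 of 8 samples (exact sign-flip permutation p = 0.00781, adjusted p = 0.0117). Among inner CpGs alone the soft-masked CpGs exceeded the others by 1.19 ± 0.108 points, in 8 of 8 samples (exact sign-flip permutation p = 0.00781). Over all paired CpGs with at least 20 reads in every sample the soft-masked excess was 3.53 points, and with at least 30 reads 2.63.

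**Figure D1:**
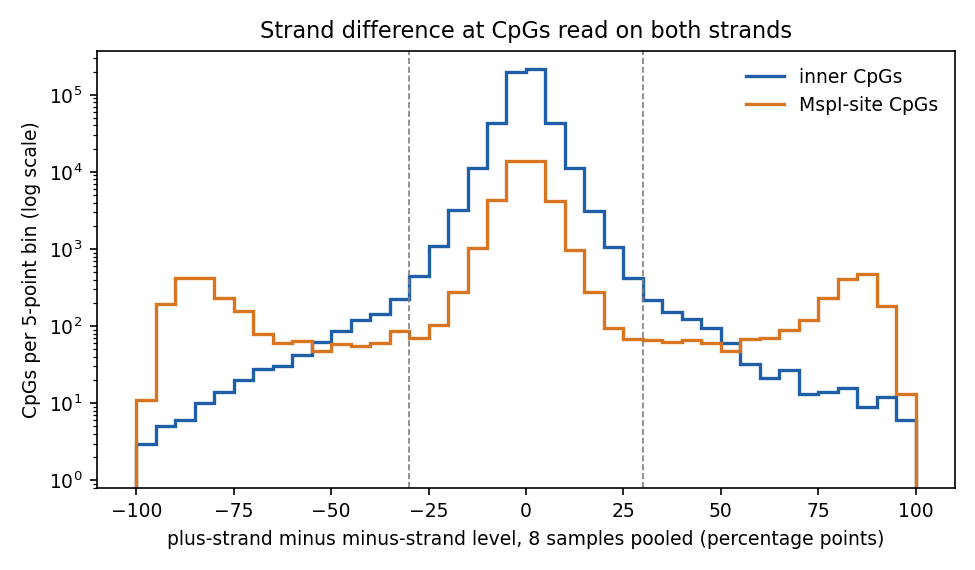
Histogram of the strand difference of each paired CpG, with reads of the 8 samples pooled. The x axis is plus-strand minus minus-strand level in percentage points and the y axis is the number of CpGs per 5-point bin on a log scale, for inner CpGs (blue) and MspI-site CpGs (orange), with dashed lines at 30 points. Inner CpGs fall off steadily from 0, whereas MspI-site CpGs have further peaks near both ends of the axis, which hold most of the 2984 CpGs that differ by 70 points or more.

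Most discordant MspI sites lay next to fragments of 2 lengths. A site adjoins a fragment on each side, and for either fragment 1 of the strands can be read from the fragment's far end, here called the far-read strand. Next to fragments of 148 bases the far-read strand was lower by 30 points or more at 1286 of 1606 fragment ends (80.1%), with a mean level of 13.5% against 76.3% on the other strand. Next to fragments of 149 bases this held at 2154 of 2550 ends (84.5%), with 12.4% against 78.1%. It held at 14.5% of ends for 147 bases, 5.57% for 146, 2.41% for 150 and 1.30% for 151. The far-read strand was not higher by 30 points at any of the ends of 148 or 149 bases. The 4155 paired CpGs next to these fragments included 3440 discordant ones (82.8%), 62.7% of all discordant CpGs in the data. At the other 39150 MspI sites 459 (1.17%) were discordant, and their spread was 11.3 ± 0.322 points, 2.61 above that of inner CpGs (higher in 8 of 8 samples, given without a test). The number of ends was itself high at these lengths, 1606 and 2550 against 488 for 147 bases and 384 for 151, and the fragment on the other side of the site was long, with a median of 614 and 917 bases against 259 for 150.

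**Figure D2:**
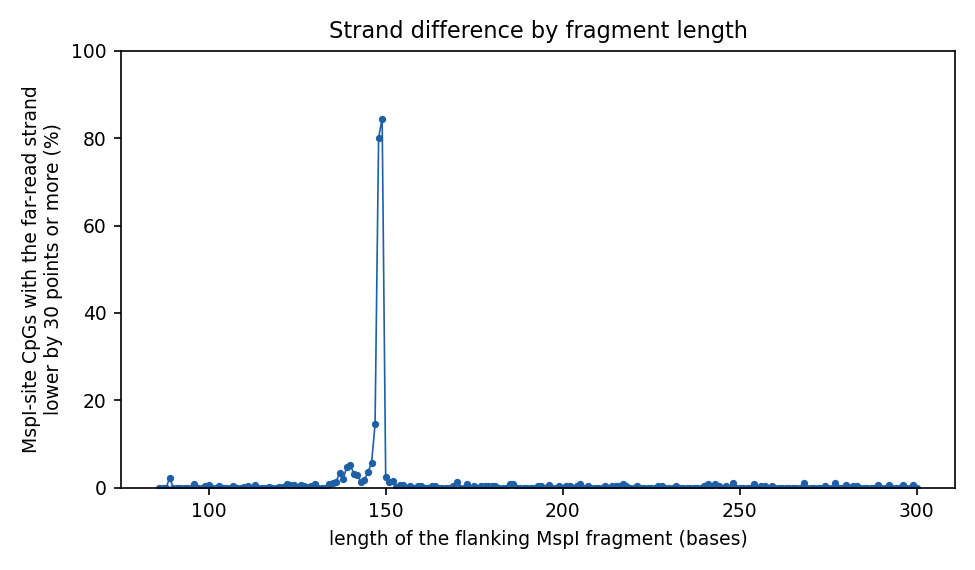
Percent of MspI-site CpGs whose far-read strand was lower by 30 points or more (y axis), by the length in bases of the flanking MspI fragment (x axis), reads of the 8 samples pooled, for lengths with at least 50 CpGs. The points stay near 0 except at 147 (14.5%), 148 (80.1%) and 149 bases (84.5%).

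The pattern held in each sample and at both ends of a fragment. Over the 4154 sites with 1 such fragment, the far-read strand averaged 12.1 to 14% and the other strand 76.7 to 77.6% in the 8 samples, a difference of 64.5 ± 0.542 points (SD, n = 8, given without a test, since the lengths were chosen by this difference). The far-read level was 13.1% ± 0.763 for control and 12.4% ± 0.297 for arsenic samples (SD, n = 4) and did not differ detectably (exact permutation p = 0.2). It rose with the level of the other strand and stayed far below it. Its mean was 3.03% where the other strand was under 10%, 4.93% at 10 to 30%, 9.91% at 30 to 60%, 14.6% at 60 to 80% and 14.3% at 80% or more. Where the other strand was at 80% or more (3059 sites, mean 91.6%), the far-read strand had a median of 8.0% and was under 10% at 65.8% of sites. Where the other strand was at 60 to 80% the median was 8.20%, and at 30 to 60% it was 6.72%, against 2.86% where the other strand was under 10%. Of 1950 fragments of these lengths with a paired CpG at both ends, 1597 (81.9%) had the plus strand higher by 30 points at the left end and the minus strand higher by 30 points at the right end, 156 at 1 end only and 197 at neither. The opposite order was seen at 0 of them.

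Cdh3, which encodes P-cadherin, holds one of the largest of these differences, and its intron CpG adjoins a left fragment of 148 bases and a right fragment of 1520. The plus strand was at 3.57, 3.57, 7.50 and 2.38% in the control samples and at 0% in the 4 arsenic samples, and the minus strand was at 98.8, 98.8, 98.9 and 100% in control and 100, 100, 94.6 and 100% in arsenic samples. The strands did not overlap in any sample, and the pooled levels were 2.23 and 99.1%. The CpG near Pmp22, a myelin protein gene, has the fragment of 149 bases on its right, and here the plus strand was the high one (93.5 to 100%, median 96.6) and the minus strand the low one (0 to 3.77%, median 0). The CpG near Mef2c, a transcription factor gene, had 148 bases on its left, and its plus strand was at 0 to 9.09% and its minus strand at 96.1 to 99.4%. Near Nat8f3, with 149 bases on the left, the plus strand was at 0 to 10.9% and the minus strand at 92.4 to 100%.

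Other MspI sites had strands as far apart without such a fragment. The Sdk2 site, in an intron of a cell adhesion gene, has fragments of 56 bases on both sides, and its plus strand was at 0 to 1.51% and its minus strand at 88.7 to 100%. Near Atoh1, which encodes a transcription factor of neural and sensory cells, the fragments were of 75 and 128 bases. The minus strand was at 0 in 8 of 8 samples, with 324 reads that allow a level of up to 0.926%, and the plus strand was at 89.6 to 100%. Near Pthlh, the gene of parathyroid hormone-like hormone, the left fragment had 6 bases and the right one 122, and levels were 98.1 to 100% on the plus and 1.03 to 5.85% on the minus strand. The 32 bases around the CpG occur at 3 other places of the reference for Sdk2, 2 for Atoh1 and 0 for Pthlh.

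Inner CpGs with discordant strands were spread over the genome. They numbered 1588, of which 797 had the plus and 791 the minus strand higher. Discordance was lowest in promoters (0.0750% of inner CpGs there) and rose through exons (0.170%) and introns (0.267%) to intergenic sequence (0.485%), with the mean plus-strand level rising in the same order from 7.54 to 66.4%. By the mean level of both strands it was 0 of 154885 below 5%, 1.94% at 40 to 60% and 0 of 40525 at 95% or more. A level near 0 or 100% leaves little room for a difference, and the part of the level in the order of the regions was not tested. Of discordant inner CpGs 28.4% had an exact copy of their central 32 bases elsewhere in the reference, in either orientation, against 12.7% of the other inner CpGs, and 16.2% against 5.86% had 10 or more copies. Outside soft-masked sequence the shares of inner CpGs with any copy were 8.72 and 5.40%. At MspI sites 41.7% of discordant CpGs had such a copy, against 11.3% of the others. For 10 or more copies these shares were 33.3 and 4.76%, and the part of copies in the discordance was not tested. The distance from the cuts also moved with the strand difference. CpGs 145 to 149 bases from the left cut, where plus-strand reads begin, had a mean of plus minus minus of -1.79 points. CpGs at that distance from the right cut, where minus-strand reads begin, had one of 1.87. In the next 5 bases these means were 0.488 and -0.495. At 3 to 5 bases from the left and right cut they were -0.717 and 0.767. Discordant CpGs were 0.813 and 0.764% there and 0.658 and 0.836% at 145 to 149 bases, beside 0.301% of all inner CpGs.

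The strongest inner example lay in repeat sequence 656085 bases from Igfbp3, which encodes an insulin-like growth factor binding protein, in a fragment of 156 bases. At the first CpG the plus strand was at 94.3 to 100% (20 to 47 reads per sample) and the minus strand at 0 to 1.64% (58 to 127 reads). At the second CpG, 37 bases to the left, the order was reversed, with the plus strand at 0 in 8 of 8 samples and the minus strand at 79.2 to 96.8%. The 32 bases around the first CpG occur at 886 other places of the reference, and those around the second at 2289. The reverse complement of the second stretch, near Lrrc4c, had a plus strand at 0 to 16.2% and a minus strand at 74.2 to 100%. The low strand of the shared sequence was thus the opposite one at these places. The 32 bases near Lrrc4c also had 2289 other copies. A CpG near Pfkp, in a fragment of 201 bases, was at 89.7 to 100% on the plus and 0 to 2.38% on the minus strand, with 230 other copies. Inner CpGs without an exact copy also reached large differences. A CpG 9102 bases from Vps45, a vesicle transport gene, was at 0 to 23.7% on the plus and 85.6 to 94.5% on the minus strand, and one in an intron of Slc25a21, a mitochondrial carrier gene, at 93.5 to 100 and 0 to 10%.

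Windows with many discordant CpGs were rare. Of windows of 1 kb with a discordant CpG, 2275 held 1, 1490 held 2 and 60 held 3 or more. In the window with most, chr6:3201000-3201999, 14 of 15 paired CpGs had the minus strand higher by 30 points or more, all 15 lay in a single fragment of 154 bases, and the median depth was 60595 reads over 8 samples against 697 for all paired CpGs. The mean level of the discordant CpGs was 22.3 to 31.4% on the plus and 68.5 to 81.4% on the minus strand in the 8 samples. At the start of Mapk1ip1l (chr14:47298000-47298999) 10 of 10 paired CpGs, in a fragment of 120 bases, had the minus strand higher. The plus strand was at 1.11, 5.75, 0.909 and 0% in control and 0, 7.52, 13.8 and 2.67% in arsenic samples, and the minus strand at 58.1, 66.1, 44.6 and 51.1% in control and 32.3, 34.0, 32.6 and 39.7% in arsenic samples. The groups thus overlapped on the plus strand and not on the minus strand, where all control samples were above all arsenic samples. The 10 CpGs share the reads of this fragment, and groups did not overlap at 2.1% of all cytosines in the table. At the promoter of Romo1, a mitochondrial gene (chr2:156144000-156144999), 9 of 10 had the plus strand higher, at 28.5 to 59.4% against 4.56 to 38.1%, in a fragment of 137 bases. None of the CpGs in these 3 windows was soft-masked or had an exact copy of its 32 bases.

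Discordance returned from one group to the other. Chosen in the control samples alone, 5940 CpGs differed by 30 points or more, and in the arsenic samples 5061 of them (85.2%) did so in the same direction and 5883 kept the sign. The share that returned was 97.1% at MspI sites and 62.2% at inner CpGs. Neither the mean absolute strand difference (8.01 ± 0.263 points in control samples, 7.78 ± 0.525 in arsenic samples, SD, n = 4, exact permutation p = 0.486, adjusted p = 0.583) nor the spread beyond counting error (10.8 ± 0.269 and 10.6 ± 0.438, exact permutation p = 0.4, adjusted p = 0.583) differed detectably between groups.

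The study asked whether gestational arsenic exposure changed methylation in these cells, and the average level was lower in arsenic samples on each strand. On the plus strand the mean level was 53.2% ± 0.0854 for control and 52.9% ± 0.159 for arsenic samples, and on the minus strand 53.2% ± 0.0819 and 52.9% ± 0.140 (SD, n = 4). The difference was -0.313 points on either strand, and the groups did not overlap (exact permutation p = 0.0286 on each, the smallest that 4 against 4 allow, adjusted p = 0.0571 over 6 comparisons). The difference between the strands' group differences was 0.000376 points (exact permutation p = 1). With each CpG weighted by its coverage the group difference was -0.834 points on the plus and -0.662 on the minus strand, with -0.172 points between them (exact permutation p = 0.0857), and the groups no longer stood apart (exact permutation p = 0.171 and 0.257). CpGs with 1 strand in the table had a group difference of -0.320 points, which did not differ detectably from that of paired CpGs (difference 0.00733, exact permutation p = 0.886). The paper gives the bisulfite conversion rate as a range and not by sample, and its part in the group differences was not tested.

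**Figure D3:**
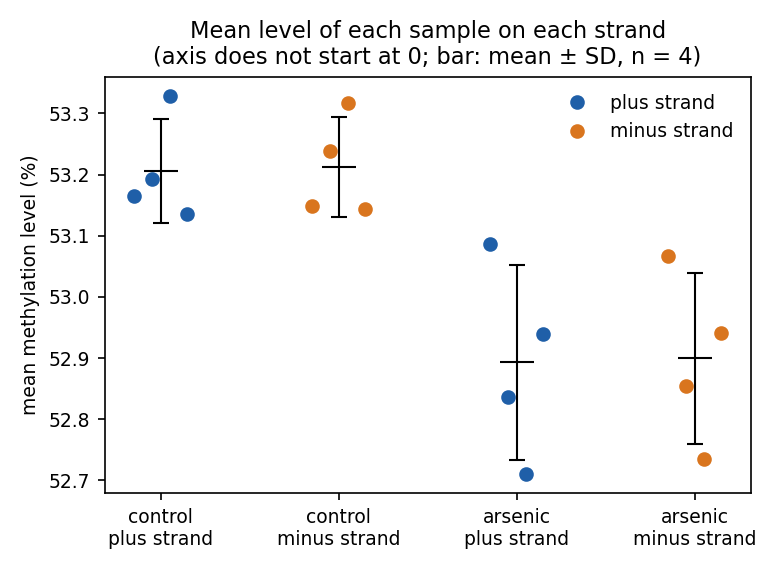
Mean methylation level in percent (y axis, which does not start at 0) of each sample over the 571672 paired CpGs, on the plus strand (blue) and the minus strand (orange), with the mean and SD of 4 samples as bars. On either strand the 4 control samples lie above the 4 arsenic samples, and arsenic minus control is -0.313 points.

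At single CpGs the measured group difference on one strand was hardly related to that on the other. Counting error is separate on each strand and lowers this relation at a median of 33 to 47 reads. Its part was not tested. Across the 571672 CpGs the r between arsenic minus control on the plus strand and on the minus strand was 0.0178, and 0.0134 among the 141612 CpGs with a mean level of 20 to 80% (the strands share the samples and not the reads). Of 494653 CpGs with a difference other than 0 on both strands, 251173 (50.8%) had the same sign. The SD of the group difference was 5.2 points on the plus and 5.18 on the minus strand, whereas the part that the strands shared had an SD of 0.673 points. The spread that the strands shared between samples of one group would by itself give such an SD of 0.417 points.

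On the same strand, neighbouring CpGs did go together. The comparison covered 203494 inner CpGs with a next paired CpG within 20 bases in the same fragment. On the plus strand the group difference had an r of 0.360 with that of the next CpG. On the minus strand this r was 0.357 (neighbours share reads, and so share counting error in part). With the partner cytosine of the same CpG, 1 base away on the other strand, r was 0.0196, and with the other strand of the next CpG 0.0111.

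Differentially methylated cytosines (DMCs) were called by logistic regression on the pooled counts with a q of at most 0.01 and at least 10 points between groups. Over all cytosines 0.552% were DMCs, 0.323% lower and 0.228% higher in arsenic, and over those read on 1 strand only 0.402%. On the plus strand of the paired CpGs there were 3787 DMCs (0.662%), 2223 lower (0.389%) and 1564 higher (0.274%) in arsenic, and on the minus strand 3795 (0.664%), 2235 lower and 1560 higher. With overdispersion scaled, an F test called 0 cytosines of either strand, so the calls rest on pooled counts. An unadjusted F-test p under 0.05 was reached by 23670 plus-strand (4.14%) and 23219 minus-strand cytosines (4.06%), both shares below that threshold. CpGs called lower on the plus strand had a median difference of -16.0 points there and of -0.612 on the minus strand, where 55.2% had the same sign. CpGs called higher on the plus strand had 15.5 points there and 0.0991 on the minus strand, with 51% of the same sign. The minus-strand calls gave -15.5 and -0.484 points for those lower (53.2% of the same sign) and 15.6 and -0.300 for those higher (46.9%). Where a called plus-strand CpG had a neighbour within 20 bases in its fragment (1139 CpGs), 82.0% of neighbours had the same sign on the plus strand, with a median of 5.50 points in the direction of the call. The partner strand of the called CpG had the same sign at 53.3%, with a median of 0.29. For 1151 calls on the minus strand these shares were 80 and 48.2%.

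**Figure D4:**
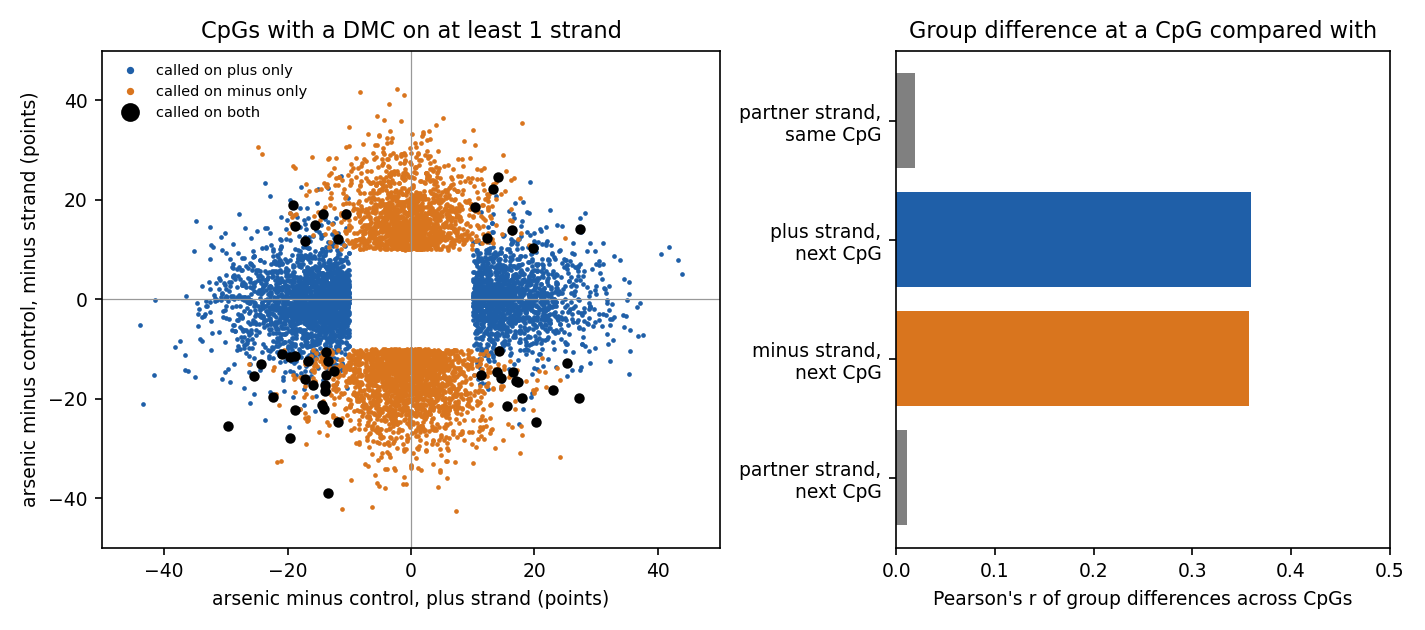
Left, arsenic minus control in percentage points on the plus strand (x axis) and the minus strand (y axis) of each CpG with a DMC on at least 1 strand, coloured by the strand that was called; right, Pearson's r across 203494 inner CpGs between the group difference at a CpG and that of the cytosine named. Calls made on 1 strand scatter about 0 on the other, the 49 CpGs called on both (black) fall in all 4 quadrants, and r is 0.360 and 0.357 with the next CpG on the same strand but 0.0196 with the partner strand.

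Few CpGs were called on both strands. There were 49, of which 29 had one direction (0.00507% of paired CpGs, 22 lower and 7 higher in arsenic) and 20 opposite directions. Of the plus-strand DMCs lower in arsenic 0.990% were also called lower on the minus strand, beside 0.391% of all paired CpGs called lower there, and of those higher 0.448%, beside 0.273%. Calls in the opposite direction were fewer for plus-strand DMCs lower in arsenic (7, against 22 in the same direction) and more for those higher (13, against 7). The 29 CpGs were 0.766% of plus-strand and 0.764% of minus-strand DMCs. Of the 29, 18 had a mean level of 20 to 80% (62.1%, against 24.8% of all paired CpGs) and their median depth was 1025 reads over 8 samples against 697. They lay in exons (6, 20.7% against 16% of all paired CpGs), introns (13, 44.8% against 35.7%) and intergenic sequence (10, 34.5% against 35.2%), with 0 in promoters against 13.1%. Of the 29, 3 were soft-masked (10.3% against 15.7%) and 0 were discordant between strands, against 0.96%. Without the fourth control sample there were 48 such CpGs.

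Summing the reads of the strands changed which CpGs were called. With summed reads 3055 CpGs were DMCs (0.534%), 1980 lower and 1075 higher in arsenic. They included the 29 called on both strands in one direction, 1566 of the 7484 called on exactly 1 strand, and 1460 called on neither. The other 5918 calls made on 1 strand were not called with summed reads. Of the 3055, 67 were discordant between strands (1.2% of discordant CpGs, against 0.528% of the others), of which 43 were called on neither strand. At 32 of the 67 the summed difference lay outside the range of the differences on the strands, as it did at 151 of all 3055. The CpG near Pfkp is of this kind. Its group difference was -2.16 points on the plus strand (q = 0.366) and 0.775 on the minus strand (q = 0.481), but -13.1 points with summed reads (q = 0.00017, logistic regression on pooled counts). Control samples had 487 plus-strand and 151 minus-strand reads there, and arsenic samples 458 and 258. The low minus strand thus gave a larger share of the summed reads in arsenic samples.

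CpGs whose groups did not overlap were counted without a model, beside 2.1% of all cytosines in the table. On the plus strand 11783 CpGs (2.06%) and on the minus strand 11886 (2.08%) had all arsenic samples above or below all control samples, 195 (0.0341%) did so on both strands in one direction, 117 lower and 78 higher, and 132 on both in opposite directions. Only 4 CpGs were both called and without overlap on both strands in one direction, and these are the CpGs of Mcf2l, Maf, Plcg1 and Ank3 shown above. They are given as a description, since they were chosen by these values.

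The Mcf2l CpG lies in an intron, in an MspI fragment of 111 bases. Its plus strand was at 15, 23.5, 42.9 and 41.7% in control and at 5.0, 13.2, 0 and 0% in arsenic samples. Its minus strand was at 45.8, 30.4, 35.3 and 28.6% in control and at 18.5, 27.7, 13.8 and 5.56% in arsenic samples. Arsenic samples were thus lower on both strands, by 22.3 and 19.7 points with pooled reads, and the highest arsenic and lowest control samples were within 2 points of each other (20 to 53 reads on the plus and 34 to 72 on the minus strand).

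The intergenic CpG nearest to Maf, which encodes a leucine zipper transcription factor, was at 100, 100, 100 and 97.1% on the plus strand in control and at 92.0, 81.1, 89.1 and 82.4% in arsenic samples. On the minus strand it was at 100, 88.0, 88.5 and 90.6% in control and at 78.4, 83.3, 72.0 and 76.0% in arsenic samples. Pooled differences were -13.8 and -15.3 points, with all arsenic samples below all control samples. Coverage per sample was 25 to 51 reads on the plus and 36 to 63 on the minus strand. Its fragment had 2895 bases, with the left cut 296 and the right cut 2599 bases away. How its minus strand was read at that distance was not established.

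The Plcg1 CpG, in an MspI site of an intron 861 bases from the start of the gene for phospholipase C gamma 1, was at 8.0, 12.9, 21.4 and 11.1% on the plus strand and 18.2, 13.3, 5.56 and 9.09% on the minus strand in control samples. It was at 0 in the 4 arsenic samples on both strands, where 150 reads allow up to 2.0% and 141 reads up to 2.13%. Coverage per sample was low, 18 to 60 reads on the plus and 15 to 47 on the minus strand. The fragments on either side of the cut have 120 and 114 bases, and which of them gave the reads of a strand was not separated. Without the first control sample the minus-strand difference was -8.22 points, under the 10 points of a call.

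The Ank3 CpG, in an exon of the gene for the membrane adaptor ankyrin-G, was the CpG higher in arsenic. Its plus strand was at 70.4, 80.7, 73.0 and 76.8% in control and 81.4, 84.8, 84.2 and 89.0% in arsenic samples, and its minus strand at 77.0, 63.9, 90.6 and 70.8% in control and 93.3, 93.5, 92.2 and 96.8% in arsenic samples. Pooled differences were 10.4 and 18.6 points, with 109 to 184 reads per sample on the plus and 30 to 77 on the minus strand. The plus-strand difference was under 10 points without the first control sample (8.37), the third control sample (9.89) or the fourth arsenic sample (8.9). On each strand the nearest samples of the 2 groups were less than 2 points apart.

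**Figure D5:**
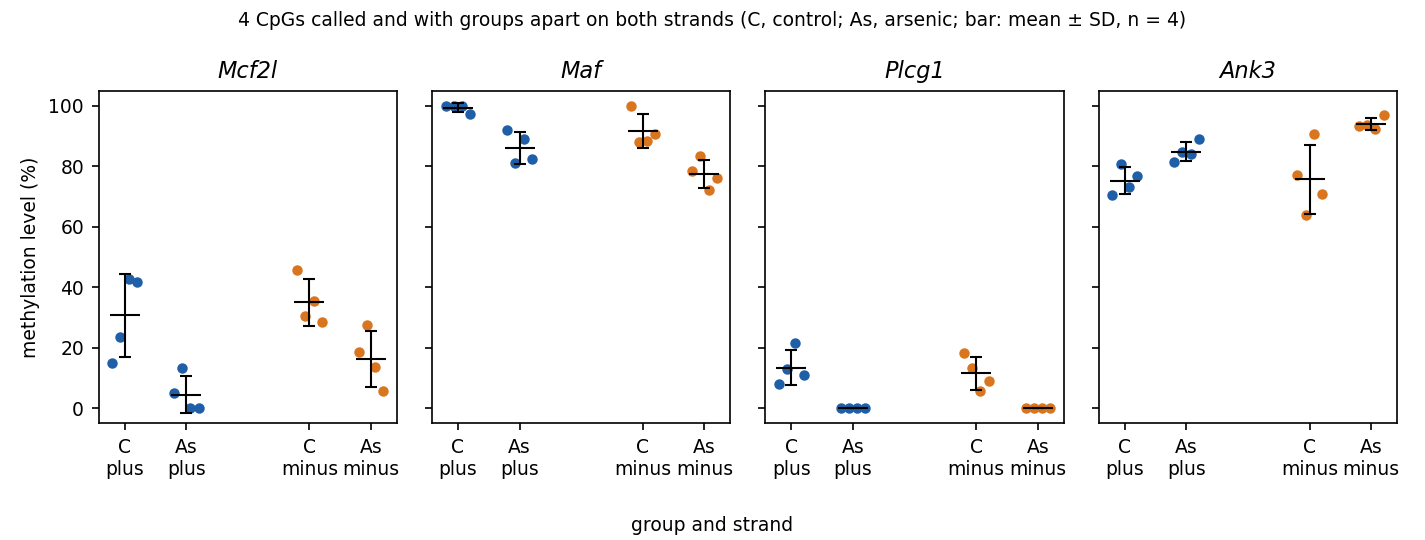
Methylation level in percent (y axis) of each sample on the plus strand (blue) and minus strand (orange) of the CpGs of Mcf2l, Maf, Plcg1 and Ank3, for control (C) and arsenic (As) samples, with the mean and SD of 4 samples as bars. Arsenic samples are below control samples on both strands of the first 3 and above them at Ank3.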

How the data were processed

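RRBS was performed by the authors on 4 control and 4 arsenic pools. The paper's methods give trimming with Trim Galore, mapping to mm10 with Bismark and joining with methylKit, with strands kept apart. The submitters' processing notes name Trim Galore 0.6.5, Bismark 0.22.3 and methylKit 1.22.0. The authors' deposited table gives counts, without normalization, of reads covering each cytosine and of reads with C or T, with at least 10 reads in every sample. The read length and the trimming options were not given in the sources used here. Samples were grouped by their labels.

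A plus-strand row at a position and a minus-strand row at the next base formed a paired CpG, on chromosomes 1 to 19. The level of a strand in a sample is 100 times reads with C over coverage, and pooled levels sum the reads of the 8 samples. MspI fragments were cut in silico at each CCGG of GRCm38 with their length counted from cut to cut, soft-masking was read from its RefSeq sequence, and regions came from curated RefSeq transcripts (promoter, 1 kb before to 100 bases after a start site). The spread beyond counting error is the square root of the mean squared strand difference less its binomial part. Comparisons of samples used exact permutation (70 ways for 4 against 4) and exact sign-flip tests over 8 samples, both two-sided, with Benjamini-Hochberg adjustment. Copies were exact matches of the central 32 bases among 22752812 CpGs of the reference. DMCs were tested as in the study's methods by logistic regression, computed as a likelihood-ratio test on pooled counts with Benjamini-Hochberg q over the 2130064 cytosines on chromosomes 1 to 19, X and Y (over paired CpGs for summed reads). PCR copies are not independent molecules, and limits for a count of 0 (3 counts of the total) cover counting error only.

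The named CpGs are, with at least 20 reads per strand and sample, the 4 largest strand differences in each direction, at most 1 per 10 kb and without chromosome 18. Beside them stand the 3 largest inside no MspI site in each direction, the CpGs called and without group overlap on both strands, and the 3 windows of 1 kb with most discordant CpGs. The CpGs, lists and rules were chosen with earlier results of these data known. Alternatives were coverage minimums of 20 and 30, each sample left out, the 0.1% deepest, soft-masked or MspI-site CpGs left out, weighting by coverage, the mean of sample levels in place of pooled reads, 20 and 40 points, overdispersion and a replicate block. The method was tested on simulated data. The software was scipy 1.17.1, numpy 2.4.6, pandas 2.3.3 and matplotlib 3.10.9 under Python 3.11.15.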

Additional observations from a re-analysis of the deposited data

Results flagged for a closer look

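A sample stood apart from the other 3 of its group by Dixon's ratio in 7 of 58 groups of 4 values examined, and chance flags about 1 in 20. The first control sample had a lower spread of the strand difference beyond counting error than the other control samples, 10.4 points against 10.9 to 11.0, and likewise at inner CpGs (8.36 against 8.91 to 8.99), soft-masked CpGs (15 against 15.4 to 15.5) and CpGs outside soft-masked sequence (9.31 against 9.85 to 9.93). It was also the deepest control sample, with a coverage summed over paired CpGs of 33902043 on the plus strand against 27000934 to 31022870. The strand difference of the Atoh1 site was 89.6 points in the first arsenic sample against 98.6 to 100 in the others. That of the Cdh3 site was -94.6 points in the third arsenic sample against -100 in the other arsenic samples. The Maf CpG with strands summed was at 100% in the first control sample against 93.2 to 93.5% in the others.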

How the results depend on the processing

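Of the 222 values recomputed under an alternative, 177 kept their direction and side of the threshold or stayed within 1.5 times the reported count, and 6 changed sign, none of them past the threshold. Weighted by coverage, the mean strand difference was 0.0789 points (exact sign-flip permutation p = 0.148) and the group difference in strand difference -0.172 (exact permutation p = 0.0857). The latter ranged from -0.0126 to 0.00766 with each sample left out, below 0 without control sample 2 or 4 or arsenic sample 1 or 4. A coverage of at least 20 or 30 leaves fewer CpGs (247233 and 119587), with a soft-masked excess of 3.53 and 2.63 points, 2322 and 1127 discordant, 2426 and 1508 plus-strand DMCs, 2507 and 1517 minus-strand DMCs, 1644 and 764 DMCs with summed reads, and at 30 reads 18 called on both strands in one direction. Discordant CpGs numbered 2978 without soft-masked CpGs, 1588 without MspI sites, 2047 without sites next to fragments of 148 or 149 bases (an alternative chosen after seeing the data) and 8833 at 20 points. Weighting by coverage gave group differences of -0.834, -0.662 and -0.742 points on the plus strand, the minus strand and both summed. With each sample left out in turn these differences ranged from -0.377 to -0.252, -0.369 to -0.258 and -0.375 to -0.251, with an exact permutation p of 0.0571 without any 1 control sample and 0.0286 without any 1 arsenic sample. CpGs called on both strands in one direction ranged from 28 to 48, the highest without the fourth control sample. No pairing of samples by replicate number was detected. The r of deviations was -0.00068 to 0.0041 for same-numbered samples and -0.00422 to 0.00487 for the others. Counting error lowers this r, so it cannot exclude a pairing. With the number as a replicate block the differences of -0.313, -0.313 and -0.311 had an exact sign-flip p of 0.125, the smallest that 4 pairs allow. A blocked Cochran-Mantel-Haenszel test called 13 CpGs on both strands in one direction and 11 in opposite directions. Logistic regression with overdispersion and an F test called 0 DMCs on the plus strand, the minus strand, both strands in either order or with summed reads. At an unadjusted p under 0.05 this F test had 23670 plus-strand (4.14%) and 23219 minus-strand cytosines (4.06%). Of these CpGs 623 (0.109% of paired CpGs) had one direction on both strands and 484 (0.0847%) opposite directions. The cause of these changes was not tested. At 33 to 47 reads per strand, group differences of a few points at single CpGs are within counting error.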
